A study of Mus musculus with 4 samples.

Results

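The BMP ligands Bmp2 and Bmp4, the secreted antagonists Grem1, Nog and Fst, and the BMP target genes Id1, Id2, Id3 and Id4 were followed exon by exon in Mitf knock-in and wild-type MEFs. Every listed exon that GENCODE release M21 assigns to these 9 genes was taken, which gave 30 of the 234718 exons and 9 of 22835 genes. GENCODE annotates 52 exons for them, and the other 22 are not among the listed ones. RNA was sequenced from wild-type MEFs at passage 3 (MEF). Mitf knock-in MEFs at passage 5 were sequenced without Dox (Dox (-)) and after 6 days of Dox (Dox (+)). All were grown in DMEM with 10% FBS. The knock-in cells carry the melanocyte isoform of Mitf behind a Dox-responsive element at the Col1a1 locus, with the M2rtTA transactivator expressed constitutively from ROSA26 in both the Dox (-) and Dox (+) cultures. They trace back to a correctly targeted mESC clone and were grown from chimeric embryos, which hold host cells as well, with mCherry and puromycin resistance as the means of isolating transgenic cells. Genotype and passage both separate MEF from the knock-in libraries and cannot be told apart. The primary melanocytes (PMel) of the study were not analysed here.

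BMPs are secreted dimers of the TGF-beta superfamily. They bind type I and type II serine/threonine kinase receptors, which phosphorylate SMAD1, SMAD5 and SMAD9, and these enter the nucleus with SMAD4. The Id genes are immediate targets of that pathway in many cell types, and their products are helix-loop-helix proteins without a basic DNA-binding region that hold E proteins and other partners off DNA. Noggin, Gremlin and Follistatin act outside the cell by binding ligand, Noggin and Gremlin mostly BMPs and Follistatin mostly activins. MITF is itself a basic helix-loop-helix leucine zipper factor, and BMP4 is known to modulate pigmentation in cultured melanocytes.

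Values are RPKM, that is, reads on an exon scaled to its length and to the depth of sequencing, and the level of a gene is its highest exon, as in the study's methods. The highest exon was taken in each library and need not be the same one. Undoing this scaling with 45000000 reads for MEF and Dox (-) and 44000000 reads for Dox (+) returned whole reads, so the reads behind each of the 30 exons could be stated. Single-exon folds below are ratios of these reads after division by library depth, with an exact 95% interval that covers counting error only. There was 1 library per condition, so no test of a condition was possible, and "called" means above 10 RPKM in at least 1 of 2 libraries and more than 4-fold apart between their highest exons. Mitf, the induced gene, had 1.52 RPKM in MEF, 30.8 RPKM in Dox (-) and 1544 RPKM in Dox (+), in the direction of the labels. Collagen and other fibroblast markers were above 10 RPKM for 7 of 8 genes in MEF and 8 of 8 in both knock-in libraries. Markers of macrophages summed to 62.0 RPKM over 10 genes in MEF, 17514 RPKM in Dox (-) and 634 RPKM in Dox (+), so the Dox (-) library stands apart in them. None of the 10 was at 0 in any library, and Lyz2, the lysozyme gene, had the highest level, 10820 RPKM in Dox (-). Melanocyte markers summed to 4.97, 41.5 and 318 RPKM over 8 genes in MEF, Dox (-) and Dox (+). Tyrp1 and Mlana had the most in Dox (+), 110 and 133 RPKM, and 4 of the 8 were above 10 RPKM there. From Dox (-) to Dox (+) the log2 difference was above 0 for 7 markers and below 0 for Sox10, with 6.69 and 1.66 RPKM. Dct had 0.798 and 0.900 RPKM in the same order, and Tyr reached 2.37 RPKM in Dox (+). Sox10, Dct and Tyr are named here after their values were seen. In bulk RNA, fewer cells of a type and less RNA per cell cannot be told apart.

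Of the 9 genes, 2 were called in Dox (+) against Dox (-), both lower, and these were Bmp4 and Fst. Among all 13307 genes tested, 7.05% were called in this comparison, 1.64% as higher and 5.41% as lower in Dox (+). Dox (+) against MEF gave 3 calls, Grem1 and Id4 higher and Bmp4 lower, where 9.95% of 12941 genes were called, 6.55% higher and 3.4% lower. The median log2 difference of all genes in this comparison was 0.27, and after subtracting it the same 3 genes were called, while the calls over all genes went from 848 higher and 440 lower to 674 and 542. Dox (-) against MEF gave 3 calls, all higher, for Fst, Grem1 and Id4, against 9.47% of 13234 genes called in either direction, 8.26% higher and 1.21% lower. Bmp2 and Nog stayed under 10 RPKM in all 3 libraries and could not be called. The comparisons share libraries and are therefore not independent of each other.

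**Figure D1:**
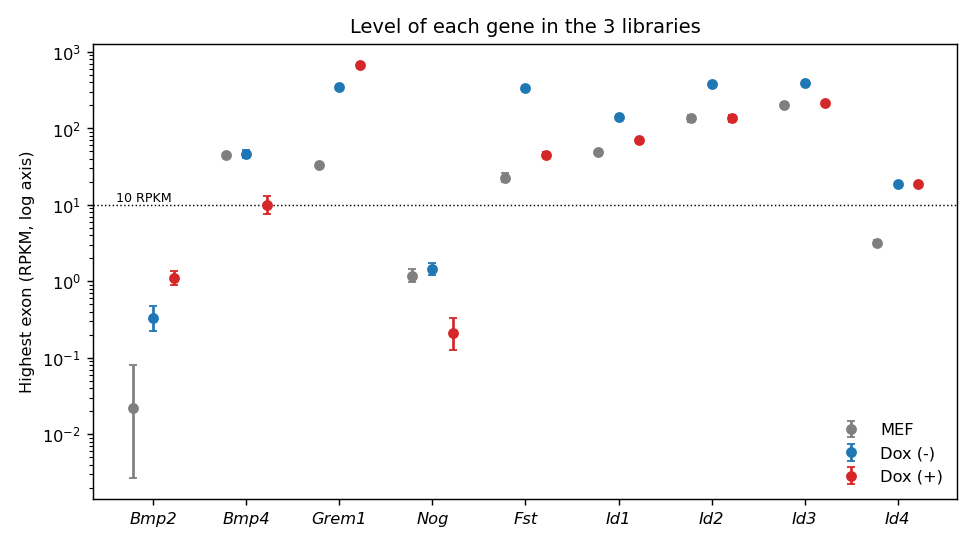
Highest exon of each gene in RPKM on a log axis, for MEF (grey), Dox (-) (blue) and Dox (+) (red), 1 library each, with bars for the 95% counting interval and a dotted line at 10 RPKM. Bmp4 is level in MEF and Dox (-) and lower in Dox (+), Grem1 is ordered MEF, Dox (-), Dox (+), and Fst and Id1 to Id3 are highest in Dox (-).

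Bmp4, on chromosome 14 (minus strand, 46383520 to 46390669, mm10), encodes the ligand with the higher level of the pair. Its highest exon, another one in MEF than in the knock-in libraries, had 45.5 RPKM in MEF, 46.8 RPKM in Dox (-) and 10.0 RPKM in Dox (+). The library with induced Mitf was thus the low one, while MEF and Dox (-) lay within each other's counting intervals. On the main coding exon, from 46383707 to 46384712, 2062 reads in MEF and 2052 in Dox (-) stood against 313 in Dox (+), which is 6.41-fold lower than Dox (-) (5.69 to 7.24). The upstream coding exon, from 46385715 to 46386094, was 5.97-fold lower (4.83 to 7.45). The noncoding exon from 46387156 to 46387280, which lies in the 5′ untranslated part, was 4.68-fold lower (3.49 to 6.37), with 263 reads against 55. The outermost 5′ exon behaved differently. Its 2 listed forms, which have the same 3′ end at 46390304, shared 41 reads in MEF, 81 in Dox (-) and 42 in Dox (+). There Dox (+) was 1.89-fold lower than Dox (-) (1.28 to 2.81) and 1.05-fold higher than MEF, within counting error. The call of Bmp4 as lower in Dox (+) therefore rests on the 4 downstream exons, of which the last pair overlap, and was not made on the 5′ end.

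Bmp2, on chromosome 2 (plus strand, 133552159 to 133562885), was near the limit of detection. Its last exon, which holds most of the coding sequence, had 0.0221 RPKM in MEF, 0.331 RPKM in Dox (-) and 1.11 RPKM in Dox (+). These levels came from 2, 30 and 98 reads. Dox (+) was 3.34-fold higher than Dox (-) on this exon (2.20 to 5.21), and Dox (-) was 15.0-fold higher than MEF with a wide interval of 3.81 to 130. On the first exon, which is noncoding, the reads were 0, 2 and 15 in the same order. The ligands thus ran in opposite directions between Dox (-) and Dox (+), Bmp4 lower and Bmp2 higher, but in Dox (+) the highest exon of Bmp4 was still above that of Bmp2.

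Grem1 encodes Gremlin, which binds BMP2 and BMP4 and keeps them from their receptors. It is also on chromosome 2 (minus strand, 113746164 to 113758646), and its large second exon, which holds the whole coding sequence and the 3′ untranslated region, had 33.4 RPKM in MEF, 347 RPKM in Dox (-) and 678 RPKM in Dox (+). Those levels represent 6004, 62419 and 119160 reads, the deepest coverage among the 30 exons. Dox (-) was 10.4-fold above MEF (10.1 to 10.7), Dox (+) was 20.3-fold above MEF (19.8 to 20.8), and Dox (+) was 1.95-fold above Dox (-) (1.93 to 1.97). The noncoding first exon had 27, 555 and 1375 reads, and its Dox (+) level was 2.53-fold above Dox (-) (2.29 to 2.80) and 52.1-fold above MEF. Both exons placed the libraries in the same order. In Dox (+) Grem1 had the highest level of the 9 genes, and at the 88.6th percentile of log2 fold changes against Dox (-) it was well inside the range of all genes.

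Fst, on chromosome 13 (minus strand, 114452290 to 114458951), encodes Follistatin. Its highest exon, a different one in each library, had 22.7 RPKM in MEF, 343 RPKM in Dox (-) and 44.8 RPKM in Dox (+). Only the Dox (-) library was high, with the highest exons of MEF and Dox (+) within a factor of 1.97. Exon by exon, Dox (+) was between 1.06-fold and 6.82-fold above MEF. On the third listed exon from the 5′ end, which is fully coding and runs from 114455684 to 114455902, 218, 3380 and 414 reads were counted in MEF, Dox (-) and Dox (+). That makes Dox (+) 7.98-fold lower than Dox (-) (7.21 to 8.86) and Dox (-) 15.5-fold higher than MEF (13.5 to 17.9). All 6 listed exons were lower in Dox (+) than in Dox (-), by 4.69-fold at the first exon up to 10.2-fold at the last. The last listed exon, mostly 3′ untranslated, had a ratio of Dox (+) to MEF of 1.06 (0.969 to 1.16), while the first, which overlaps Gm47040 on the opposite strand, had 0.291 RPKM in MEF and 1.98 RPKM in Dox (+), from 6 and 40 reads. The macrophage markers were called lower in Dox (+) than in Dox (-) for 10 of 10 genes and higher in Dox (-) than in MEF for 10 of 10, so they ranked the libraries in the same way as Fst, and their part in its level was not tested. The same holds for Grem1 and Id4 in Dox (-) against MEF.

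Nog encodes Noggin in a single exon of chromosome 11 (minus strand, 89300638 to 89302332). It had 1.19 RPKM in MEF, 1.47 RPKM in Dox (-) and 0.213 RPKM in Dox (+), from 103, 127 and 18 reads. Dox (+) was 6.90-fold lower than Dox (-) (4.19 to 12.0) and 5.60-fold lower than MEF (3.37 to 9.81), while Dox (-) and MEF differed by less than counting error. Nog thus had the pattern of Bmp4 at a far lower level, and it was not called only because of the 10 RPKM threshold.

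**Figure D2:**
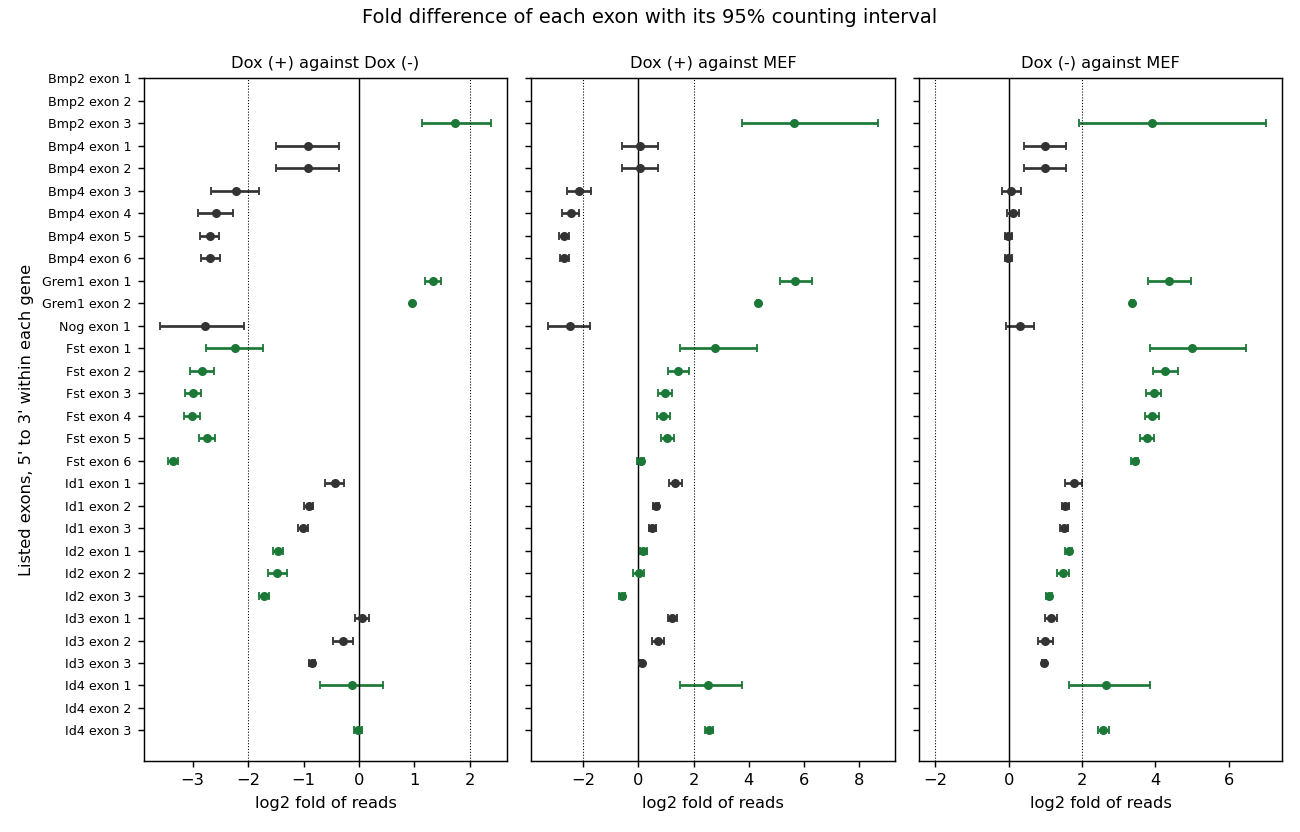
Log2 fold of reads for each listed exon, numbered from the 5′ end, with its 95% counting interval, for exons with at least 20 reads in the pair of libraries and some reads in both (dotted lines, 4-fold; colours alternate by gene). Within Bmp4, Grem1, Fst, Id1, Id2 and Id3 the fold of Dox (+) against Dox (-) is lower at the 3′-most than at the 5′-most exon. Grem1 and Id4 lie far above 0 against MEF.

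Id1, Id2 and Id3 were all highest in Dox (-) on their highest exons, by less than 4-fold. Id1 is on chromosome 2 (plus strand, 152736251 to 152737410), and its last exon had 49.6 RPKM in MEF, 142 RPKM in Dox (-) and 70.3 RPKM in Dox (+), from 979, 2796 and 1357 reads. Dox (+) was 2.01-fold lower than Dox (-) there (1.89 to 2.15) and 1.42-fold higher than MEF (1.30 to 1.54). That exon has 39 coding bases, and the first exon of Id1 has 405. On the first exon Dox (+) was only 1.35-fold lower than Dox (-) (1.20 to 1.53) and 2.52-fold higher than MEF (2.13 to 2.99). Id2, which is known as an Id protein bound by the retinoblastoma protein, is on chromosome 12 (minus strand, 25093799 to 25097140). Its highest exon is only 64 bases long and had 136 RPKM in MEF, 379 RPKM in Dox (-) and 136 RPKM in Dox (+). Dox (+) was 2.78-fold lower than Dox (-) on it (2.47 to 3.13), and the ratio of Dox (+) to MEF was 1.00 (0.868 to 1.16), which on the log2 scale became -0.27 after subtraction of the all-gene median. The exons of Id2 did not share a direction against MEF. The ratio of Dox (+) to MEF was 1.13 (1.05 to 1.23) on the 5′-most exon and 0.658 (0.610 to 0.710) on the 3′-most. Of the 3 genes Id2 had the strongest difference between the knock-in libraries, between 2.76-fold and 3.28-fold over its exons.

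Id3, on chromosome 4 (plus strand, 136143497 to 136145755), was the highest of the 9 genes in MEF. Its last exon, which is entirely 3′ untranslated, had 199.9 RPKM in MEF, 390 RPKM in Dox (-) and 216 RPKM in Dox (+), and was 1.80-fold lower in Dox (+) than in Dox (-) (1.74 to 1.87). The first exon, where most of the coding sequence lies, gave another picture. It had 14.9 RPKM in MEF, 33.4 RPKM (31.4 to 35.5) in Dox (-) and 34.8 RPKM (32.7 to 37.0) in Dox (+), so at the 5′ end no difference between the knock-in libraries was detectable. Against MEF, the first exon in Dox (+) was 2.33-fold higher and the last 1.08-fold higher, and the latter turned to a log2 difference of -0.16 after subtraction of the all-gene median.

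Id4 departed from the other Id genes. It is on chromosome 13 (plus strand, 48261228 to 48266026), and its last exon, the 3′ untranslated region, had 3.15 RPKM in MEF, 18.8 RPKM in Dox (-) and 18.6 RPKM in Dox (+), from 462, 2760 and 2670 reads. The knock-in libraries were alike within counting error (ratio 0.989, 0.938 to 1.04) and both were nearly 6-fold above MEF, at 5.97-fold (5.41 to 6.61) for Dox (-) and 5.91-fold (5.35 to 6.54) for Dox (+). The first exon, which holds most of the coding sequence and overlaps 2 genes annotated on the opposite strand, gave 9, 57 and 51 reads and the same order. Because the strand of counting is not given in the sources used here, reads on that exon could come from either strand. The last exon overlaps no other annotated gene.

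On the scale of RPKM, which allows genes to be compared per length, the order of the highest exons differed between libraries. In MEF it ran Id3, Id2, Id1, Bmp4, Grem1, Fst, Id4, Nog and Bmp2, where Id1 and Bmp4 were neighbours with overlapping counting intervals. In Dox (-) Id3, Id2, Grem1 and Fst lay between 343 and 390 RPKM, with the intervals of Id3 and Id2 overlapping, and those of Grem1 and Fst as well. When all exons of a gene were pooled, so that a short exon no longer set its level, Grem1 led in Dox (-) at 337 RPKM, followed by Fst at 193, Id3 at 185 and Id2 at 149 RPKM. In Dox (+) Grem1 led by highest exon and by pooled exons, with 678 and 660 RPKM, against 216 and 114 RPKM for Id3, which came next.

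The balance of 5′ and 3′ exons differed between the libraries. The level of the outermost listed 5′ exon relative to the outermost 3′ exon had a median over 6688 other protein coding genes, all above 10 RPKM by their highest exon and above 1 RPKM on both end exons in every library, of 0.298 in MEF, 0.389 in Dox (-) and 0.562 in Dox (+). Of these genes, 63.8% had their ratios in that order. Of the 8 genes described here that have separate end exons, 7 had this order, but Bmp2, Bmp4, Fst and Id4 do not pass that filter, so the count and the share are not alike. The place of Bmp2 rests on 0 reads at its 5′ end in MEF. Fst had ratios of 0.0172 in MEF, 0.0507 in Dox (-) and 0.110 in Dox (+), and Bmp4 had 0.0640, 0.127 and 0.435. Id4, with 0.0826, 0.0875 and 0.0810, was the exception. With only the 5′-most exon of each gene, none of the 9 genes was called in Dox (+) against Dox (-), where Bmp4 and Fst were then under 10 RPKM in both libraries. With only the 3′-most exon Bmp4 and Fst were both called. The part of this end balance in the differences was not tested.

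**Figure D3:**
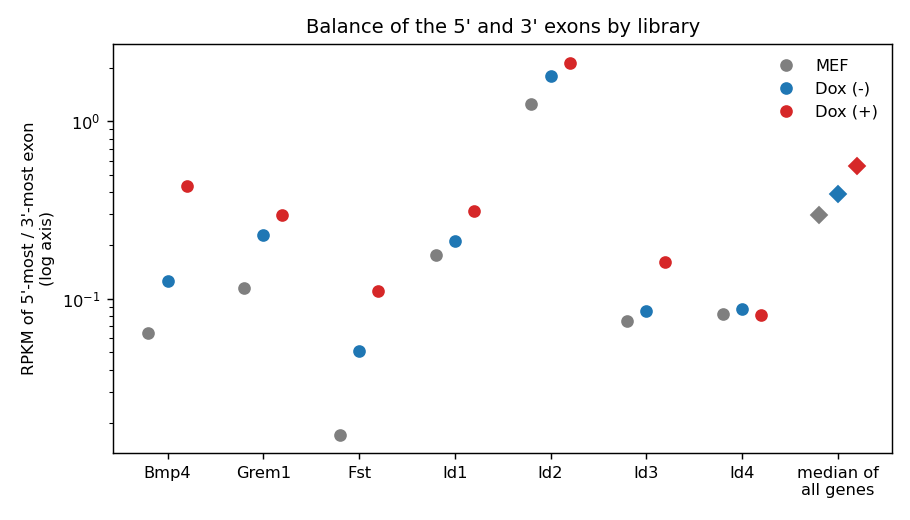
RPKM of the 5′-most listed exon divided by that of the 3′-most, on a log axis, for MEF (grey), Dox (-) (blue) and Dox (+) (red), with diamonds for the median of 6688 other genes. Bmp2, with 0 reads on its first exon in MEF, and the single-exon Nog are left out. The order MEF, Dox (-), Dox (+) is seen in all genes shown except Id4, and in the median.

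MITF binds E-boxes. Bmp4 was the gene of the group called lower in Dox (+) against both other libraries, though not on its 5′-most exon. Its promoter is therefore printed, with those of Grem1, Id2 and Id4, in which the GC-rich palindrome bound by BMP-activated SMADs occurs. The sequences are from RefSeq on GRCm38.p6, the same build as mm10, cover 250 bases before to 50 bases after an annotated start, and are written 5′ to 3′ on the strand of the gene. Of the 9 genes 5 had an entry in the table used, Bmp4, Grem1, Id2, Id3 and Id4. Capitals mark CACGTG, one of the E-box forms known for MITF, and GGCGCC, the SMAD palindrome, both of which read the same on either strand. The window of Bmp4 is chr14:46390620-46390919 on the minus strand, that of Grem1 is chr2:113758599-113758898 on the minus strand, that of Id2 is chr12:25096043-25096342 on the minus strand, and that of Id4 is chr13:48260866-48261165 on the plus strand.
Bmp4: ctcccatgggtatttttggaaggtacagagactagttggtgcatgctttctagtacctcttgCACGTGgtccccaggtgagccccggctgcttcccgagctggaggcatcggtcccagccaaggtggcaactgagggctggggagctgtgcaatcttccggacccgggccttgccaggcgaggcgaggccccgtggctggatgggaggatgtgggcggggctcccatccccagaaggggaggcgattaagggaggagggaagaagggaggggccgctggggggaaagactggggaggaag
Grem1: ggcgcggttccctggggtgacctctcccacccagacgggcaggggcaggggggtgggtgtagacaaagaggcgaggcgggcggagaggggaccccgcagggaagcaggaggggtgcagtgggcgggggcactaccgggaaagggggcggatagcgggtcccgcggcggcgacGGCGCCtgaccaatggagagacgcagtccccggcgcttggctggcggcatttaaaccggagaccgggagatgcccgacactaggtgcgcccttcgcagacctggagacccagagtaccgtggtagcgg
Id2: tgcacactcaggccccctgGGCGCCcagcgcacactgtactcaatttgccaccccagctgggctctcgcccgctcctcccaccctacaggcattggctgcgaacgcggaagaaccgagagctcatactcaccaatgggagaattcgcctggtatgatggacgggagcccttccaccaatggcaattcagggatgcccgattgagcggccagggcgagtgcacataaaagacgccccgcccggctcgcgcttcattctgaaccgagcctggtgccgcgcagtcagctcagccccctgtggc
Id4: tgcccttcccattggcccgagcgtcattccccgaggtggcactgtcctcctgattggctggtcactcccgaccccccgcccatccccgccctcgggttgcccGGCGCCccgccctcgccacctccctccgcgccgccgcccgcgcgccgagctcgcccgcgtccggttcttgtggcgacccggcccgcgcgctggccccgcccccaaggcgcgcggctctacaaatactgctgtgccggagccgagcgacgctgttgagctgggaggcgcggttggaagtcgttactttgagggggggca

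CACGTG was found in the promoter of Bmp4, starting at position -188 from the start site, and in none of the other 4 windows. It occurs in 7.15% of the 32851 promoters of the table. The start site in the Bmp4 window is that of the outermost 5′ exon. On that exon Dox (+) was 1.89-fold lower than Dox (-) and 1.05-fold higher than MEF, the latter within counting error. The call of Bmp4 rests on exons downstream of it. CATGTG is the E-box form that the study names as the motif of MITF. Searched on both strands, it was in none of the 5 windows and is in 14.2% of all promoters. GGCGCC was found at -78 in Grem1, -231 in Id2 and -148 in Id4, and is in 11.9% of all promoters. The GC content of the 5 windows was between 60.0% and 73.3%. These matches describe letters in a window and do not show binding.

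**Figure D4:**
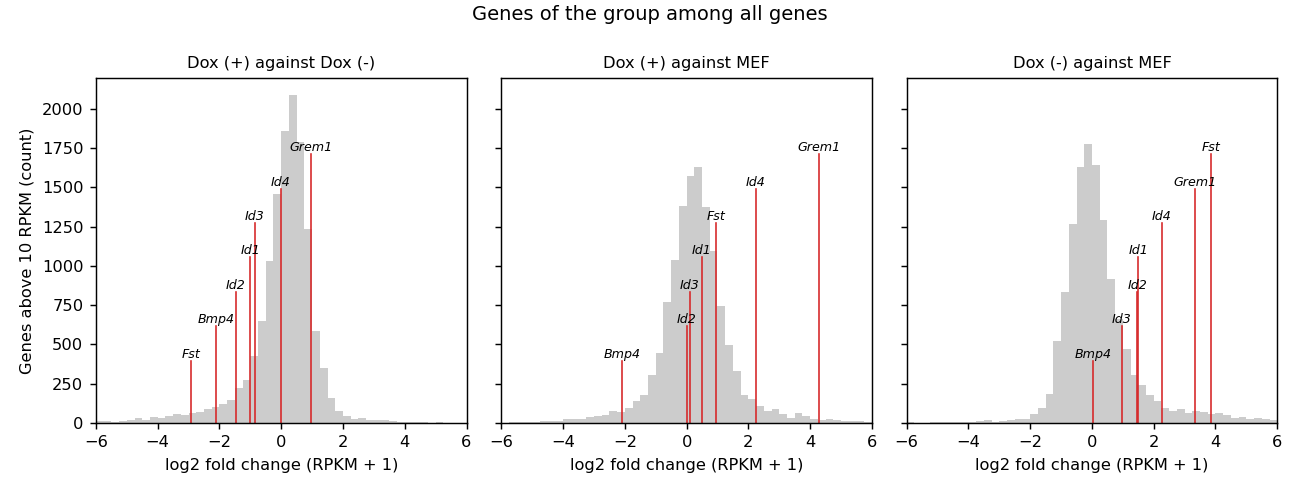
Histograms of log2 fold change, after adding 1 RPKM, over all genes above 10 RPKM in at least 1 library of the pair, with the 7 genes of the group that passed this threshold marked in red at arbitrary heights. Fst and Bmp4 lie in the lower tail of Dox (+) against Dox (-), and Grem1 and Id4 in the upper tail of both comparisons with MEF.

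On the log2 scale with 1 RPKM added, the median difference of Dox (+) from Dox (-) was -1.00 over the 9 genes, Bmp2 and Nog included, and 0.23 over all genes tested. Fst stood at -2.91 and Bmp4 at -2.12, at the 2.7th and 4.6th percentiles of all genes, followed by Id2 at -1.47, Id1 at -1.00, Id3 at -0.85, Id4 at -0.01 and Grem1 at 0.96. Of these 7 genes only Grem1 was above the median of all genes. Dox (-) against MEF had a median of 1.47 over the 9 genes and 0.01 over all genes, with Fst at 3.86, Grem1 at 3.34, Id4 at 2.26 and Bmp4 at 0.04. Against MEF, Dox (+) had a median of 0.50 over the 9 genes and 0.27 over all genes.

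The rest of the pathway was read from lists of genes. In Dox (+) against Dox (-) only 1 of 11 other BMP ligands in the data passed 10 RPKM. This was Bmp6, which is known for its role in iron sensing, with 0.796 RPKM in MEF, 10.4 RPKM in Dox (-) and 1.43 RPKM in Dox (+). It was called lower in Dox (+) against Dox (-) and higher in Dox (-) against MEF. Among activins and related ligands, which Follistatin binds, 3 of 5 were above threshold and none was called between the knock-in libraries. With 7.05% of all genes called in that comparison, nothing can be read from the lack of a call among these 3 genes. Inhba, the activin A subunit, had 27.7 RPKM in MEF, 446 RPKM in Dox (-) and 263 RPKM in Dox (+), called higher in both knock-in libraries against MEF. Inhba and its antagonist Fst were therefore both at their highest in Dox (-).

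Other secreted antagonists and modulators were called for 0 of 10 tested genes in Dox (+) against Dox (-), and for 3 of 10, all higher, in each knock-in library against MEF. Over all genes 7.05% were called in the first comparison, and 6.55% and 8.26% were called higher against MEF in Dox (+) and Dox (-). Among the called genes were Bmper, a secreted BMP-binding protein, with 14.0 RPKM in MEF, 229 RPKM in Dox (-) and 188 RPKM in Dox (+), and the chordin relative Chrdl1, with 1.19, 11.8 and 11.4 RPKM. Both were lower in MEF than in either knock-in library. Receptors and coreceptors gave 0 of 10 calls between the knock-in libraries, where a share of 7.05% over all genes leaves nothing to be read from 0, and 3 of 10 higher in each against MEF, beside 6.55% and 8.26% of all genes. The type II receptor Bmpr2 had 11.9 RPKM in MEF, 88.3 RPKM in Dox (-) and 76.8 RPKM in Dox (+), the type I receptor Acvrl1 had 15.9, 93.7 and 101 RPKM, and the coreceptor Eng had 11.9, 70.1 and 50.1 RPKM. The SMAD list, with SMADs and Smurf ubiquitin ligases, had 7 of 8 genes above threshold and no call in any of the 3 comparisons. The E proteins Tcf3, Tcf4 and Tcf12, which Id proteins bind, were called in none of the comparisons. Their median log2 difference between Dox (+) and Dox (-) was 0.34, next to 0.23 for all genes. Of all genes 7.05% were called in Dox (+) against Dox (-). Against MEF the shares were 9.95% in Dox (+) and 9.47% in Dox (-). Nothing can therefore be read from 0 calls in the SMAD and E protein lists.

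Among other genes known to respond to BMP, 1 of 7 tested was called lower in Dox (+) against Dox (-) and 3 of 7 were called higher in Dox (-) against MEF, beside 5.41% and 8.26% of all genes. Of all 10 genes in this list 7 were below and 3 above 0 in log2 difference between Dox (+) and Dox (-). These 10 include 3 genes under 10 RPKM. Among all genes tested 62.6% were above 0. Atoh8, a basic helix-loop-helix factor, had 9.94 RPKM in MEF, 44.2 RPKM in Dox (-) and 10.4 RPKM in Dox (+) and was called in both. Hey1, a repressor of the same family, had 1.08, 17.5 and 4.60 RPKM, and the homeobox gene Msx2 had 1.55, 16.1 and 7.99 RPKM. Atoh8, Hey1 and Msx2 were highest in Dox (-), while Runx2, with 29.1, 35.4 and 49.1 RPKM, and Smad7, with 40.3, 89.2 and 135 RPKM, which were not called and are named here after their values were seen, were highest in Dox (+). This list shares Smad6, Smad7 and Bambi with the lists above. Of the fibroblast markers 5 of 8 were called lower in Dox (+) against Dox (-), beside 5.41% of all genes. In Dox (-) against MEF 4 of 8 were called higher, beside 8.26%. In Dox (+) against MEF 3 of 8 were higher and 0 lower, beside 6.55% and 3.4%. The median log2 difference of the 8 markers in this last comparison was 0.59. Their sum was 19669 RPKM in MEF, 52657 RPKM in Dox (-) and 13058 RPKM in Dox (+), most of it from collagens and Postn. Thy1, a surface marker of fibroblasts, was instead highest in Dox (+), with 726, 2014 and 3608 RPKM in the same order. None of 8 housekeeping genes was called in any comparison. With shares between 7.05% and 9.95% called over all genes, nothing can be read from this 0. The median log2 difference of these 8 genes was 0.58 between Dox (+) and Dox (-) and -0.47 between Dox (-) and MEF. What part cell composition had in the levels of the Id genes was not tested.

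**Figure D5:**
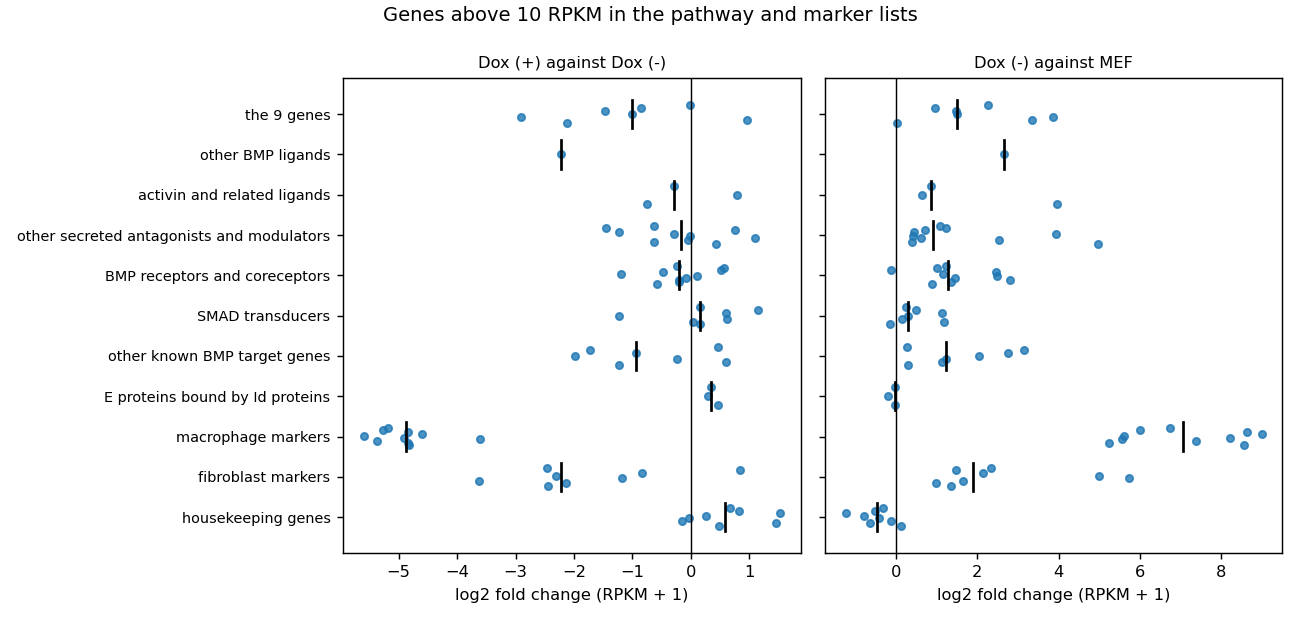
Log2 fold change, after adding 1 RPKM, of each gene above 10 RPKM in the pathway and marker lists, with a black bar at the list median, for Dox (+) against Dox (-) and for Dox (-) against MEF. The macrophage markers lie farthest from 0, at medians of -4.88 and 7.05. The receptor and antagonist lists have medians of -0.20 and -0.17 in the first comparison, with genes on both sides of 0. In the second comparison their medians are 1.28 and 0.90.

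The genes whose profile over the 3 libraries was nearest to that of a called gene were found by the distance between centred log2 levels, over 11767 genes. Likeness over 3 libraries is a description only. Nearest to Bmp4 were Rsrp1, Il15 and Krt7, at distances between 0.0631 and 0.0881, and Rsrp1 had 696 RPKM in MEF, 759 RPKM in Dox (-) and 167 RPKM in Dox (+). Nearest to Fst were Tnip3, Stap1 and Gdpd2, at distances between 0.0329 and 0.0583. Grem1 was farther from its neighbours, among them Foxs1 at 0.116 and Kitl at 0.203, and Kitl, the ligand of the Kit receptor, had 1.23 RPKM in MEF, 26.1 RPKM in Dox (-) and 50.1 RPKM in Dox (+). Nearest to Id4 were Lpp, Sprr2b and Ccnd2, at distances between 0.0721 and 0.0913.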

How the data were processed

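RNA-seq libraries of poly(A) RNA were prepared with a TruSeq kit from MEF, Dox (-), Dox (+) and PMel, 1 library each. Reads were demultiplexed with bcl2fastq 2.17.1.14, aligned to mm10 with TopHat2 2.0.10 and counted per Ensembl exon with bedtools, and the authors deposited RPKM per exon. Whether strand or split alignments were considered is not given in the sources used here, and reads that only touch a short exon raise its RPKM.

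The deposited values were assigned to libraries by column name. A further value column (1) bore a name found in none of the labels and was not used. Exons were matched to GENCODE M21, and 6586 were unmatched. Reads were recovered from RPKM, exon length and 45000000, 45000000 and 44000000 reads per library, which made 97.2%, 97.0% and 96.9% of values below 200 reads whole within 0.02 reads in MEF, Dox (-) and Dox (+). For 5 of the 30 exons (in Nog, Fst and Id4) the annotated length gave no whole reads, and the nearest length that did in all 3 libraries was used. Precision is the counting error at 95% (Clopper-Pearson interval of the read ratio). A gene was called above 10 RPKM in 1 of 2 libraries and above 4-fold between highest exons, without a pseudocount. Log2 fold changes used a pseudocount of 1 RPKM, which understates changes of low genes. No p-values were computed.

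The 9 genes and the lists were chosen with earlier results of these data known. Named genes are these 9, Mitf, called genes of each list (at most 4), and for each called gene the 3 nearest profiles among genes with a proper symbol, and a few genes that meet this rule are not reported here. Steps were tested on simulated data. Python 3.11.15, pandas 2.3.3, NumPy 2.4.6, SciPy 1.17.1 and matplotlib 3.10.9 were used.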

Additional observations from a re-analysis of the deposited data

How the results depend on the processing

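Comparisons with PMel were planned and not run, since PMel was not analysed here. No paired analysis was possible because there was 1 library per condition. In Dox (+) against Dox (-), where 2 genes of the group were called, 4 were called at a fold threshold of 2, adding Id1 and Id2. Above 1 RPKM 3 were called, adding Nog. At a fold threshold of 8 the calls fell to 0, as they did on the 5′-most exon alone. In Dox (+) against MEF, with 3 calls, 5 were called above 1 RPKM, adding Bmp2 and Nog, 1 at a fold threshold of 8 and 1 on the 5′-most exon, Grem1 in both cases. In Dox (-) against MEF, with 3 calls, 5 were called at a fold threshold of 2, 3 above 1 RPKM and 1 on the 5′-most exon. The other alternatives (pooled exons, the median exon, 30 RPKM, the 3′-most exon, rescaling by the median ratio) kept the number of calls within 1.5 times, although the median exon and 30 RPKM dropped Id4 against MEF. The use of an end exon alone was added after the data were seen. Bmp4 in Dox (+) against MEF, at -2.08 by the highest exon, was the only called gene to turn sign, with a log2 fold change of 0.048 on its 5′-most exon, with 41 reads in MEF and 42 in Dox (+). Of 216 log2 fold changes recomputed, 8 changed sign. Over all genes the share called lay between 3.81% (8-fold) and 21.9% (2-fold) in Dox (+) against Dox (-), between 5.02% and 29.2% in Dox (+) against MEF and between 6.01% and 25.2% in Dox (-) against MEF, and above 1 RPKM it was 11.0%, 15.2% and 14.9%. In Dox (+) against Dox (-) 938 genes were called by the highest exon, of 13307 tested, and fewer genes could be tested with pooled exons (11107), above 30 RPKM (10582), on the 3′-most exon (10311) or on the 5′-most (6769). The causes of these changes were not tested. Depth limits Bmp2, Nog and the first exons of Fst and Id4, which had under 20 reads in at least 1 library.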

Other observations

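Below the 10 RPKM threshold, a few other BMP ligands differed between the libraries. They were picked after their values were seen. Gdf6 had 0.118 RPKM in MEF, 5.08 RPKM in Dox (-) and 1.29 RPKM in Dox (+), and Bmp5 had 0.400, 1.73 and 0.236 RPKM. Both were highest in Dox (-), as Bmp6 was. Bmp8b, with 0.234, 0.117 and 2.39 RPKM, was instead highest in Dox (+), as Bmp2 was. Smad6, an inhibitory SMAD, had 61.0 RPKM in MEF, 75.5 RPKM in Dox (-) and 31.8 RPKM in Dox (+), while its relative Smad7 was highest in Dox (+), so these 2 genes, both known as BMP targets, differed in opposite directions between the knock-in libraries. Each value is from 1 library, without a replicate check.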
